A study of Mus musculus with 25 samples.

Results

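Rgcc, the regulator of cell cycle gene (first described as response gene to complement 32), was followed across 25 libraries of whole mouse Achilles tendon. It was found by its symbol in the deposited table of expected counts, where it is 1 of 55487 genes and 1 of the 19155 that passed the filter on low counts. It was chosen by its counts, which were higher in mice that ran on wheels, and by its correlation with other genes, so its running values and its correlations are given as descriptions without a test. The tests of Rgcc below concern genotype and sex, which played no part in that choice. Other genes were also tested for running.

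The Rgcc protein binds CDK1, the kinase that drives cells into mitosis together with cyclin B1, and raises its activity. The gene was found through its induction by sublytic complement attack, it is a target of p53, and its product can bind SMAD3 in TGF-β signalling and act on the kinase AKT. In the vasculature it is expressed in endothelium, is induced by hypoxia and has been linked to restraint of VEGF-driven vessel growth.

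Rgcc (ENSMUSG00000022018) lies on the minus strand of chromosome 14 at chr14:79288756-79301645 (GRCm38, GENCODE M21). The annotation gives it 1 transcript, with 5 exons, 918 exonic bases and 137 codons, and no gene overlaps its 12890 bases. The stretch before the start site is shown because Rgcc was chosen for its difference between activities, while its tested neighbours did not pass the running test. These 240 bases run 5′ to 3′ on the gene's strand (chr14:79301646-79301885, RefSeq, GRCm38.p6), from 250 to 11 bases before the RefSeq start. Capitals mark each GC box (GGGCGG or its reverse complement) and 1 TATAA.
Rgcc upstream: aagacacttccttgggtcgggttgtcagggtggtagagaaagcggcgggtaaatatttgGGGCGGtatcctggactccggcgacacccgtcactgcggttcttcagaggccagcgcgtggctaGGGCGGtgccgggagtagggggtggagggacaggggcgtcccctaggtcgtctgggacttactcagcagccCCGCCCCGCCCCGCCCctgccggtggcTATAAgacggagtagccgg

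Motifs were searched on both strands over 300 bases, from 250 before to 50 after the start, in Rgcc and in all 32851 RefSeq windows of that length. The Rgcc window held 5 GC boxes. Of these, 2 lay on the gene's strand, beginning at -191 and -127 from the start, and 3 lay on the other strand at -56, -51 and -46, each sharing 1 base with the next. A GC box was present in 35.7% of all windows, and 2.71% held 5 or more. TATAA stood at -29, a form found in 24.9% of windows, whereas the longer TATAAA (13.6% of windows) was not in these letters. The window was 66.7% G and C, against a median of 52.7% over all windows. CCAAT (37.4% of windows), the AP-1 letters TGANTCA (7.81%), the cAMP response element TGACGTCA (1.79%), the hypoxia core ACGTG (19.6%), the SMAD letters GTCTAGAC (0.213%), the heat shock letters GAANNTTC (7.86%) and the CArG box (1.63%) had no match in the Rgcc window. A match describes letters only, and the absence of one says nothing about the factor.

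The mice were 3 months old and either wild type (WT) or AMPKcKO, a conditional knock-out named in the series title for the catalytic subunit AMPKα1 and written cKO here. They either lived at cage activity or had running wheels. There were 7 libraries of WT mice at cage activity, 4 from females and 3 from males. Each of the other groups (WT runners, cKO mice at cage activity, cKO runners) had 6, with 3 of each sex. The library names of cKO cage male replicate 3 and WT cage female replicate 4 have another prefix than the rest, and its meaning is not given. What drives Cre, how long the mice ran and whether each library is a separate animal are not given in the sources used here, so p-values measure the spread between these samples.

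Totals ran from 13193228 to 45724243 counts, with a median of 24538109. Prkaa1, the targeted gene, had 13.4 to 31.2 CPM (counts scaled to library size) in the 13 WT libraries and 13.9 to 22.6 CPM in the 12 cKO libraries, and its difference did not pass the test (log2 -0.36 ± 0.12 SE as the mean of both activities, edgeR quasi-likelihood test, Benjamini-Hochberg adjusted p = 0.981). Cre counts were above 0 in 11 of 12 cKO libraries and in 0 of 13 WT libraries. The library without Cre counts was cKO cage female replicate 3. The library labelled WT running male replicate 2 held the reporter eGFP at 119 CPM, against at most 1 count in the other 12 WT libraries. It and cKO cage female replicate 3 are called below the 2 libraries against their reporter label. That is a name only, since the titles give genotype and no reporter. WT running male replicate 2 had 0 Cre counts, and eGFP exceeded 10 CPM in only 2 of 6 cKO cage libraries. WT running female replicate 2 and male replicate 3 stood apart on a principal component. All 14 tenocyte markers were tested, and their summed level was 6270 to 26500 CPM at cage activity and 8990 to 20600 CPM in runners.

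Rgcc was higher in runners of both genotypes. CPM here are scaled by TMM (edgeR's trimmed mean of M-values), and raw Rgcc counts were 700 to 6717 per library, a counting error of 3.78% at the lowest and 1.22% at the highest. At cage activity the WT females had Rgcc levels of 88.1, 58.6, 66.7 and 55.3 CPM, while levels of 63.0, 63.2 and 50.9 CPM were measured in the WT males. The cKO females of that activity had 37.6, 52.9 and 54.2 CPM, and the males had 66.3, 73.2 and 61.3 CPM. These 13 cage libraries therefore lay between 37.6 and 88.1 CPM, with WT cage female replicate 1 the highest.

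In WT runners Rgcc was at 96.5, 205 and 150 CPM in females and at 93.4, 232 and 146 CPM in males. The cKO runners had 133, 227 and 126 CPM in females and 118, 100.1 and 106 CPM in males. All 12 runners lay above all 13 cage libraries. That separation was seen in 0.0209% of tested genes, namely Rgcc, Plekho1, Uchl1 and the predicted gene Gm35853, and the opposite separation in 0.00522%. Rgcc was chosen for its running difference in these libraries, so its place among these genes is a description and no support. For Rgcc the full separation held with TMM scaling alone, against 10 of 12 runners by total count and 9 of 12 in FPKM.

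**Figure D1:**
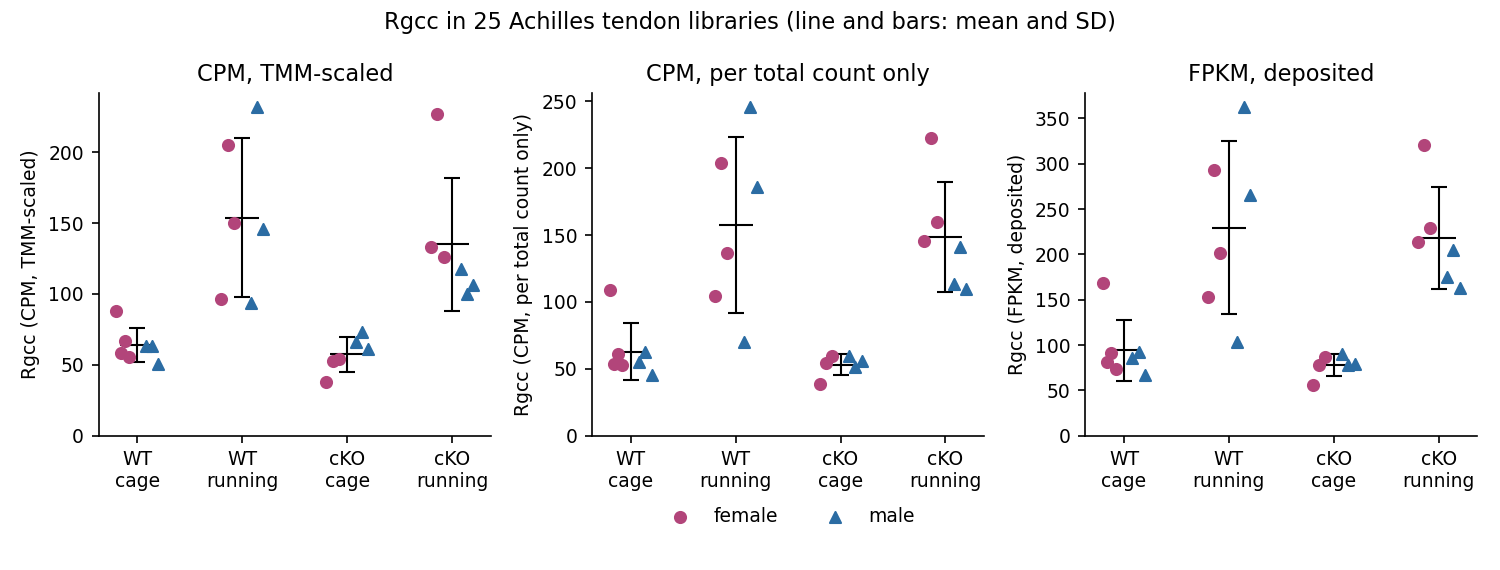
Rgcc in each library by genotype and activity (x axis), as CPM with TMM scaling, as CPM per total count alone and as deposited FPKM (y axes), with circles for females, triangles for males, and line and bars for mean and SD. Runners lay above all cage libraries in 12 of 12 cases on the first scale, in 10 of 12 on the second and in 9 of 12 on the third.

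In order of mean level, the groups were cKO cage at 57.6 ± 12.4 CPM (SD, n = 6), WT cage at 63.7 ± 12.02 CPM (n = 7), cKO running at 135 ± 46.8 CPM (n = 6) and WT running at 154 ± 56.1 CPM (n = 6). The cage groups overlapped each other and so did the running groups. The break lay between activities. The running minus cage difference was 1.28 ± 0.21 (log2 fold change ± SE) for WT and 1.22 ± 0.22 for cKO. Averaged over genotypes it was 1.25 ± 0.15, or 2.38-fold with a 95% interval of 1.91 to 2.96. That interval takes no account of the choice of Rgcc by this contrast, so it describes the fit and is not a test. Of all genes tested, 0.131% were called for running in WT, 0.0418% in cKO and 1.43% for the mean (adjusted p under 0.05), and nothing is read from these shares for Rgcc, since that contrast chose it.

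The spread of Rgcc among libraries depended on the scale. Its coefficient of variation was 34.8% over the 12 runners and 19.9% over the 13 cage libraries with TMM scaling, 34.2% and 28.3% without it, and 33.6% and 30.8% in FPKM. The highest runner, WT running male replicate 2 at 232 CPM, was the 1 WT library with eGFP above 10 CPM. Leaving out the libraries with eGFP, the WT running difference was 1.11, and there was no cKO value because all cKO runners carried eGFP. Leaving out each library in turn kept the mean running difference between 1.14 and 1.31.

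Scaling affected the separation. By total count alone, WT cage female replicate 1 had 109 CPM and exceeded WT running female replicate 1 at 104.7 CPM and WT running male replicate 1 at 69.8 CPM. On that scale 0.0313% of genes had every runner above every cage library, and Rgcc was not among them. The ratio of mean levels, runners over cage, was 2.37 with TMM scaling, 2.62 without it and 2.58 in FPKM, which divides by transcript length and depth.

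On the FPKM scale, which allows comparison between genes, mean Rgcc was 86.6 FPKM at cage activity and 224 FPKM in runners. It ranked 651 among 14295 genes with a mean of at least 1 FPKM at cage activity, above 95.4% of them. In runners it ranked 312 among 14945, above 97.9%. Rgcc was thus an abundant transcript of this tissue in both states. In whole tissue, more cells of a type and more RNA per cell cannot be told apart.

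No difference in Rgcc between cKO and WT passed the test. The design asks what loss of AMPKα1 does at cage activity and under running. At cage activity the cKO minus WT difference was -0.13 ± 0.21 (log2, SE; 95% interval -0.57 to 0.31; edgeR adjusted p = 1). In runners it was -0.20 ± 0.22 (-0.65 to 0.26; edgeR adjusted p = 0.717), and as the mean of both activities -0.17 ± 0.15 (-0.48 to 0.15; edgeR adjusted p = 0.981), a comparison that called 0.00522% of genes. Leaving out 1 library, that mean was -0.28 (without cKO running female replicate 3) to -0.07 (without WT running male replicate 2). The genotype-by-running interaction was -0.06 ± 0.31 (-0.70 to 0.57; edgeR adjusted p = 0.961), so the running fold in cKO was 0.957 times that in WT with an interval of 0.617 to 1.49. As folds, the cKO over WT intervals were 0.672 to 1.24 at cage activity and 0.638 to 1.19 in runners, which include changes in either direction. No gene was called at cage activity, in runners or for the interaction by edgeR, DESeq2 or limma-voom (0% of 19155), with 217, 2173 and 1377 genes at an unadjusted p under 0.05 in edgeR.

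Sex made no difference to Rgcc that passed the test. Male minus female was -0.07 ± 0.15 (95% interval -0.38 to 0.25; edgeR adjusted p = 0.942), in a comparison that called 0.616% of genes. The running difference was 1.46 ± 0.20 in females and 1.05 ± 0.21 in males, and the sex-by-running term was -0.41 ± 0.28 (-0.99 to 0.18; edgeR adjusted p = 0.544), and -0.07 in limma-voom. The sex-by-genotype term was 0.01 ± 0.28 (-0.58 to 0.59; edgeR adjusted p = 1). In edgeR these interactions called 0% of genes (2336 and 795 genes at an unadjusted p under 0.05), while DESeq2 called 24 and 1 and limma-voom 0 and 0.

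**Figure D2:**
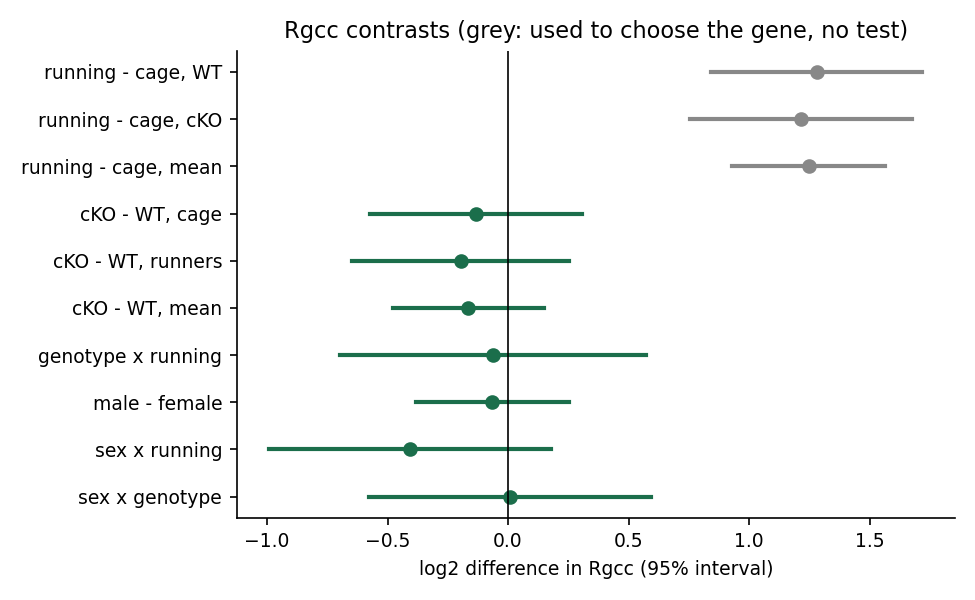
Rgcc log2 differences (x axis) with 95% intervals for each comparison (y axis), in grey for running against cage, which was used to choose the gene, and in green for the tested comparisons. All genotype and sex intervals span 0, the widest being those of the interactions. The grey intervals take no account of the choice of the gene and are not a test.

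The genes whose products act with Rgcc protein in mitosis were low. Cdk1, its kinase partner, had 0.731 ± 0.352 CPM in WT cage (n = 7), 0.714 ± 0.399 in WT running, 0.795 ± 0.352 in cKO cage and 0.587 ± 0.443 in cKO running (n = 6 each). Its running difference was -0.22 ± 0.32 (edgeR adjusted p = 0.806), against the higher Rgcc of the same runners. Ccnb1, the cyclin of that complex, had 0.35 ± 0.57 (adjusted p = 0.828) and Plk1, a mitotic kinase reported to bind Rgcc, 0.61 ± 0.53 (adjusted p = 0.642, both edgeR). Of 24 listed genes of the G2-M transition and CDK1, 23 were tested and 0 passed in edgeR, where 1.43% of all genes did. Of these, 0 had an unadjusted p under 0.05, as 2849 of all 19155 genes tested did in edgeR, and DESeq2 and limma-voom called 0. Their median running difference was 0.03 beside 0.01 over all genes tested, and the list summed to 55.2 to 79.2 CPM at cage activity and 49.3 to 89.5 CPM in runners.

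The known inducers of Rgcc gave few calls. Over all 19155 genes tested, 9992 had a positive running difference and 2849 an unadjusted p under 0.05 in edgeR. DESeq2 called 632 of all genes for running and limma-voom 912. Of 24 tested complement genes of 32 listed, 0 passed in edgeR (6 at an unadjusted p under 0.05), 19 had a positive running difference and the median was 0.26. DESeq2 called C3ar1, the C3a receptor, and limma-voom called C1qb, a chain of C1q. C3ar1 had 0.79 ± 0.25 (edgeR adjusted p = 0.122). Hc, the gene of complement C5, was not tested, with at most 5 counts in a library and a count in 10 of 25. Of 21 tested p53 genes, 0 passed in edgeR (5 at an unadjusted p under 0.05), and their median was 0.03. DESeq2 called Eda2r and limma-voom called Eda2r and Ccng1. Trp53 itself, which encodes p53, had 0.14 ± 0.09 (edgeR adjusted p = 0.488).

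Of 29 TGF-β and SMAD3 genes, all tested, 1 rose and 0 fell, with a median of 0.08. Ltbp2, which encodes a microfibril-associated relative of the latent TGF-β binding proteins, was at 10.3 ± 2.73 CPM (n = 7) at cage activity and 30.9 ± 14.6 CPM (n = 6) under running for WT, and at 13.9 ± 3.49 CPM against 23.8 ± 11.4 CPM for cKO (SD, 6 each). Its running difference was 1.18 ± 0.22 (edgeR adjusted p = 0.00616). The call was lost under 7 of 21 alternatives, among them an eGFP covariate (adjusted p = 0.136). Smad3, the transcription factor partner of Rgcc, had -0.09 ± 0.10 (edgeR adjusted p = 0.72).

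Among 26 hypoxia and VEGF genes 0 passed in edgeR (8 at an unadjusted p under 0.05), 9 were positive and the median was -0.12. Slc2a1, the glucose transporter GLUT1, had the smallest p of that list at 0.57 ± 0.16 (edgeR adjusted p = 0.0649). DESeq2 called Slc2a1 and Vegfa, and limma-voom called these and Kdr. Of 17 AKT signalling genes 0 passed in edgeR (2 at an unadjusted p under 0.05), DESeq2 called 0 and limma-voom called Inpp4b. Akt1 had 0.10 ± 0.08 (edgeR adjusted p = 0.627).

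Cell type markers were read beside Rgcc because whole tendon holds several cell types that can express it. Over all 20 lists, 280 of 314 genes were tested, 4 rose and 1 fell, which is 1.79% called beside 1.43% of all genes. Of all 19155 genes tested, 9992 had a positive running difference and 2849 an unadjusted p under 0.05 in edgeR. Of 20 capillary endothelial markers, 4 were positive, the median was -0.12, and their summed level was 1060 to 1510 CPM at cage activity and 962 to 1630 CPM in runners. Cd36, a fatty acid receptor of capillaries that other cells also express, fell by 0.46 on the log2 scale (± 0.11, edgeR adjusted p = 0.0404). It kept that call in 9 of 25 fits that each left out 1 library. The Rgcc running difference was 1.19 with an endothelial covariate in the fit.

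Macrophage markers were positive in 14 of 15 cases with a median of 0.41, although 0 passed in edgeR (8 at an unadjusted p under 0.05). DESeq2 called Cd68 and Lyz2, and limma-voom called C1qb. Their summed level was 211 to 667 CPM at cage activity, with a median of 343, and 268 to 823 CPM in runners, with a median of 596. With a macrophage covariate the Rgcc running difference was 1.22. Schwann cell markers were positive in 11 of 11 cases with a median of 0.95. Of these, 0 passed in edgeR (5 at an unadjusted p under 0.05), and limma-voom called 0. Their summed level was 56.6 to 584 CPM at cage activity and 83.8 to 1510 CPM in runners.

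In each of the stromal lists (tenocyte, sheath fibroblast and mural) 1 gene rose in edgeR, and limma-voom also called the sheath fibroblast gene Tppp3. The running difference was positive in 4 of 14 tenocyte, 9 of 10 sheath fibroblast and 11 of 14 mural genes, beside 9992 of all 19155. An unadjusted p under 0.05 in edgeR was found for 4, 4 and 2 genes of these lists, beside 2849 of all genes tested. Cilp, a cartilage intermediate layer protein of tendon matrix, rose by 0.70 ± 0.15 (edgeR adjusted p = 0.0142) while the tenocyte median was -0.18. Pi16, a marker of adventitial fibroblasts, rose by 0.81 ± 0.18 (edgeR adjusted p = 0.0233) beside a sheath fibroblast median of 0.22. Cspg4, which encodes the pericyte proteoglycan NG2, rose by 0.42 ± 0.10 (edgeR adjusted p = 0.0233) beside a mural median of 0.15. Each of these 3 calls was lost in at least 7 of 21 alternatives, among them the eGFP covariate (adjusted p = 0.395, 0.213 and 0.403). No listed marker gene was at 0 in all libraries, but only 4 of 12 lymphocyte and 1 of 9 neutrophil markers passed the filter.

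Measures of the libraries moved with activity as well. The mitochondrial rRNA share of counts was 16.6 to 31.8% at cage activity (median 25.2%) and 13.9 to 28.7% in runners (median 19.4%), and eGFP exceeded 10 CPM in 2 of 13 cage libraries and 7 of 12 runners. The mean Rgcc running difference was 1.27 with the mitochondrial rRNA share in the fit and 1.14 with eGFP carriage. With TMM scaling, the 5 WT runners without eGFP had 93.4 to 205 CPM of Rgcc, above all 7 WT cage libraries at 50.9 to 88.1 CPM. By total count alone, WT running female replicate 1 (104.7 CPM) and male replicate 1 (69.8) lay below WT cage female replicate 1 (108.8). The same held in FPKM, at 153 and 103 against 168. Whether eGFP carriage bears on the running difference was not tested.

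Likeness to Rgcc was measured on the deviations of log2 CPM from the means of group and sex, over the 25 libraries. Such points share a library, its depth and its scaling factor, and no p is given. Over all genes tested the middle of these r values was -0.02, with 1% of genes at -0.52 or below and 1% at 0.48 or above. Pon2 (paraoxonase 2, an antioxidant lactonase inside the cell) was the most like Rgcc, at r = 0.75 (rho 0.77), 0.84 within cage libraries, 0.72 within runners and 0.76 without the 2 libraries farthest in Rgcc. Libraries above their group and sex means in Rgcc thus tended to be above them in Pon2, at cage activity and in runners. This concerns deviations from those means and not the order of the levels themselves.

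Pon2 had 18.2 to 24.1 CPM in the 13 cage libraries. In WT runners it had 27.1, 42.2 and 31.4 CPM in females and 26.1, 41.5 and 27.0 CPM in males, and in cKO runners 35.6, 28.8 and 26.1 CPM and 24.4, 21.3 and 27.5 CPM. The WT runners highest in Rgcc, female replicate 2 and male replicate 2, were also the highest in Pon2, but the cKO runner highest in Rgcc, female replicate 3, was below female replicate 2 in Pon2. Pon2 rose by 0.47 ± 0.09 (edgeR adjusted p = 0.00737), and lost that call with the eGFP covariate (adjusted p = 0.255), in females alone (0.145) and in males alone (0.2).

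Pla1a, which encodes a phospholipase that acts on phosphatidylserine, had r = 0.70 with Rgcc (rho 0.71; 0.68 at cage activity and 0.70 in runners; 0.59 without the 2 farthest libraries). It had at most 5.44 CPM at cage activity and 3.41 to 16.7 CPM in runners, with ranges that overlap, and its highest library was again WT running male replicate 2. It rose by 1.14 ± 0.23 (edgeR adjusted p = 0.0111), a call lost under 8 of 21 alternatives.

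The other genes near the top did not pass the running test. They were Selenoh (r = 0.71), a nuclear selenoprotein, Pex13 (0.70), a peroxisomal import protein, Coprs (0.70), a partner of the arginine methyltransferase PRMT5, Gcsh (0.67), a carrier protein of the glycine cleavage system, Tnfrsf12a (0.67), the TWEAK receptor, and Chmp1a (0.66), an ESCRT-III protein. Their running differences were -0.07, -0.03, 0.17, 0.08, 0.54 and 0.18, with edgeR adjusted p between 0.174 and 0.928. Selenoh and Tnfrsf12a followed Rgcc mainly in runners, at r = 0.84 and 0.81, against 0.35 and 0.39 at cage activity. Without the 2 farthest libraries Tnfrsf12a had r = 0.54. Chmp1a had r = 0.11 in log2(FPKM + 1), whereas Pon2 had 0.66 and Pla1a 0.75 on that scale.

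At the other end, Nckap5 (r = -0.71), Katnal1 (-0.68), a microtubule-severing katanin, the zinc finger gene Zfp410 (-0.68) and Btbd19 (-0.65) ran opposite to Rgcc. These values rested on the scaling. In log2(FPKM + 1) they were -0.08, 0.06, -0.03 and -0.09, and with no scaling beyond the total they were -0.30, -0.06, -0.19 and -0.26.

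**Figure D3:**
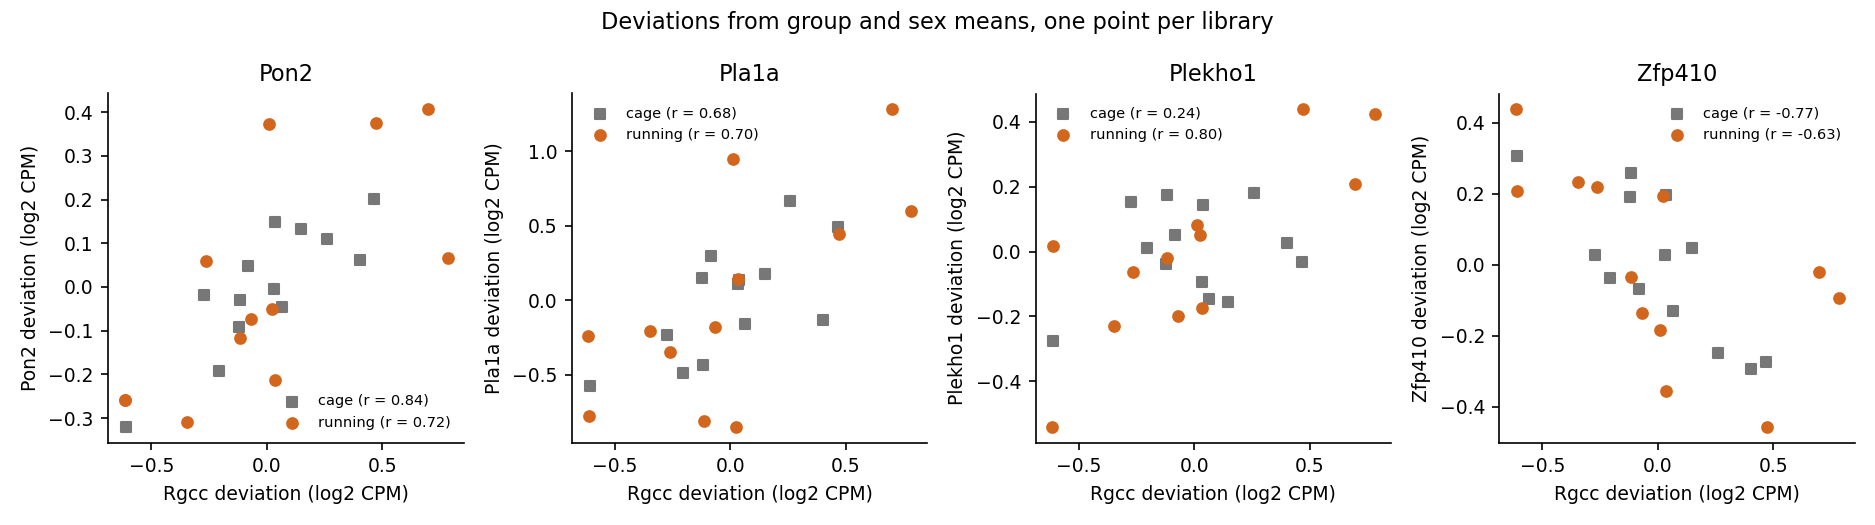
Deviation of Rgcc (x axis, log2 CPM) against that of Pon2, Pla1a, Plekho1 and Zfp410 (y axes, log2 CPM) after removal of group and sex means, with 1 point per library, squares for cage and circles for running. Pon2 and Pla1a followed Rgcc in both activities, and Plekho1 followed it in runners (r = 0.80) more than at cage activity (r = 0.24).

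Pooled over the 25 libraries, without removing group means, the most like genes were Plekho1 (r = 0.92), a membrane-associated adaptor, Pon2 (0.86), the keratin Krt80 (0.86), Ndrg4 (0.86) and the phosphodiesterase Pde10a (0.84). A pooled r includes the step between activities, so the running values of genes chosen by it are a description. Pon2 was also named by its r with group means removed, and its running test above is given on that ground alone. Plekho1 had a running difference of 1.01 ± 0.09 (log2, SE), with cage and running means of 19.5 ± 1.42 and 43.1 ± 9.74 CPM for WT, and 19.2 ± 2.36 and 35.1 ± 6.47 CPM for cKO (SD). With the means removed, its r was 0.65, and the r of Krt80, Ndrg4 and Pde10a was 0.53, 0.50 and 0.43. Within runners these 4 genes had r = 0.80, 0.66, 0.63 and 0.68, and within cage libraries 0.24, 0.31, 0.17 and -0.13.

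The genes that rose with running mostly had a positive r with Rgcc within runners. Of 116 other genes that rose, 96 (82.8%) had a positive r with Rgcc across the 12 runners and 56 (48.3%) across the 13 cage libraries. Of 156 genes that fell, 45 (28.8%) were positive in runners and 63 (40.4%) at cage activity. Over all 19154 other tested genes the shares were 46.1% and 47.3%. The share for genes that rose was 69.8% without WT running male replicate 1, the lowest runner in Rgcc, and 69.8% without WT running male replicate 2, the highest. Without scaling beyond the total it was 97.4%, but then 74.1% of all genes were positive. For genes that fell, the share with a negative r in runners rested on single libraries, at 71.2% with all, 43.6% without WT running male replicate 1, 50.6% without male replicate 2 and 41.7% without scaling.

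Likeness in 1 activity did not carry over strongly to the other. The 20 genes with the highest r at cage activity (0.81 to 0.92) had a median r of 0.18 in runners, where 15 of 20 were positive. The 20 highest in runners (0.76 to 0.91) had a median of -0.06 at cage activity, where 8 of 20 were positive. The 20 genes lowest at cage activity had a median r of -0.135 in runners, where 14 of 20 were negative. The 20 lowest in runners had a median of -0.112 at cage activity, where 16 of 20 were negative. These genes were drawn from 11313 with a mean log2 CPM of at least 1, outside chromosomes X and Y and without predicted genes. Of those 11313, 48.6% had a positive r in runners and 52.5% at cage activity. Among them, 45 exceeded r = 0.5 in both activities and 36 lay below -0.5 in both.

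On chromosome 14, 10 genes within 500 kb of Rgcc were tested and 0 passed for running in edgeR. The nearest, Naa16, an acetyltransferase auxiliary subunit 23624 bases away, had -0.01 ± 0.12 (edgeR adjusted p = 0.986). Vwa8 had -0.24 (0.351), Mtrf1 -0.31 (0.407), Kbtbd7 0.02 (0.967), Wbp4 -0.14 (0.444), Elf1 0.00 (1) and Sugt1 -0.25 (0.299) as log2 difference and edgeR adjusted p. The cartilage and tendon gene Cnmd, at a low level, had -1.24 ± 0.60 (edgeR adjusted p = 0.334). Rgcc stood above 1 on the log2 scale, but it was chosen for that difference, so its place above these neighbours was set by the choice.

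**Figure D4:**
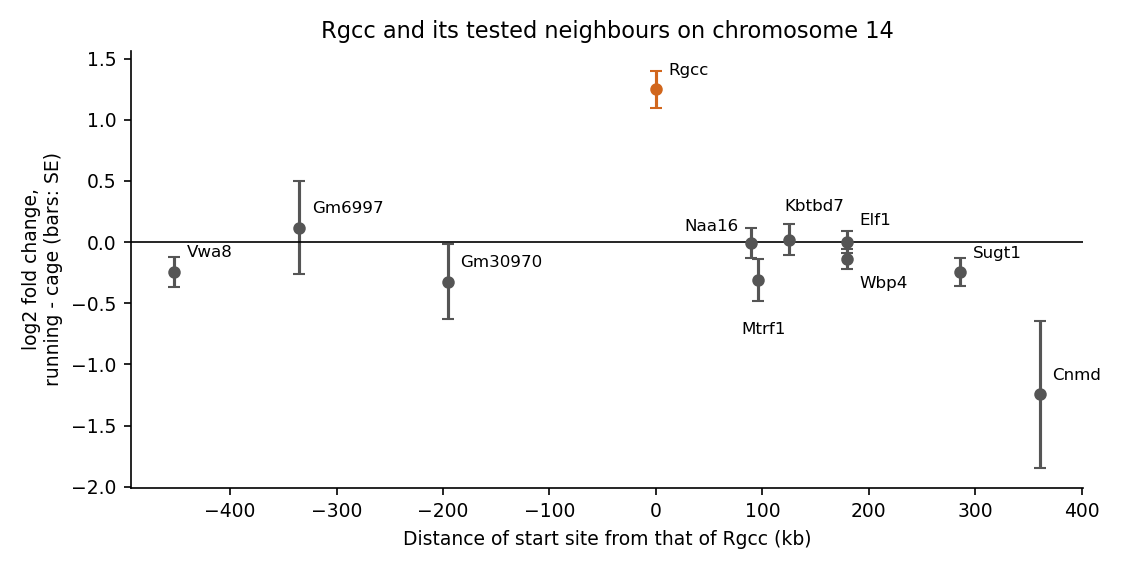
Running minus cage log2 fold change with SE bars (y axis) for Rgcc and its 10 tested neighbours, by distance of their start sites from that of Rgcc (x axis, kb). Rgcc was at 1.25, and its neighbours were between -1.24 and 0.12.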

How the data were processed

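RNA of whole Achilles tendon was sequenced in 25 libraries, grouped by genotype, activity and sex from their titles. The deposited expected counts are gene-level estimates, and the authors also deposited an FPKM table, used for levels between genes and as an alternative. The submitters' processing notes list RSEM 1.3.3, STAR 2.7.8a, cutadapt 2.3 and FastQC 0.11.8 with the build GRCm38 (mm10), and give no role for each. Annotation release and strand setting are not given in the sources used here. Expected counts were rounded, and the 4 entries for reporter sequences entered no gene test.

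In R 4.3.3, edgeR 4.0.16 (filterByExpr, TMM, quasi-likelihood F-tests, two-sided) was fitted to 19155 genes with 4 group means and a sex term, or 8 group means for interactions with sex. P-values were adjusted by Benjamini-Hochberg over all genes, and genes were called under 0.05. SE is that of the log2 fold change. Log2 CPM for correlations used a prior count of 2. Alternatives used DESeq2 1.42.0, limma 3.58.1, other scalings, filters, covariates and subsets. What is called limma-voom here is voom with quality weights for each library. The code was tested on simulated counts. The 95% intervals come from these fits and include the spread between libraries.

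Rgcc, the 20 gene lists and the tests were chosen with earlier results of these data known. Named genes are Rgcc, the 8 highest and 4 lowest in residual r and the 5 highest in pooled r (mean log2 CPM at least 1, no predicted or sex-linked genes), up to 4 called members of each list or else the 1 with the smallest p, known partners (Cdk1, Ccnb1, Plk1, Trp53, Smad3, Hc, Akt1), and tested neighbours. Uchl1, Gm35853 and genes called by DESeq2 or limma-voom alone were named after their values were seen. Running results of marker lists not described above are in the closing section. For the Schwann cell list, 1 result is not reported here.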

Additional observations from a re-analysis of the deposited data

Results flagged for a closer look

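Rgcc in WT cage female replicate 1 stood far above the other WT cage libraries, at 88.1 CPM against 66.7 for the next. The same library was at 109 CPM without scaling beyond the total (next 62.7) and at 168 FPKM (next 92.0). Rgcc in cKO running female replicate 3 was at 227 CPM, against 133 in the next cKO runner. In FPKM, cKO cage female replicate 1 was far below its group at 56, with the next at 77.5, and its Pon2 level was low too, at 18.2 CPM against 22.3. A sample this far out was found in 6 of 24 sets of values, which overlap in their libraries and scales, where chance gives about 1 in 20.

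The reporter eGFP, which no comparison used as an outcome, was at 119 CPM in the library labelled WT running male replicate 2, and at most 1 count in the other 12 WT libraries. That library had the highest Rgcc of all 25, at 232 CPM. The mean Rgcc running difference was 1.14 with eGFP carriage as a covariate, a fit in which all 6 cKO runners carried eGFP.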

How the results depend on the processing

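The mean Rgcc running difference was 1.06 to 1.46 over 21 alternatives. In cKO it was 1.75 in females alone and 0.70 in males alone. The cKO minus WT difference turned positive at cage activity in males alone (0.18), and in runners in FPKM (0.006 with 1 added, 0.007 with 0.1) and females alone (0.10). Genotype by running turned positive in limma-voom (0.015), FPKM (0.22, 0.22), without the 2 libraries that stand apart (0.055), without the 2 against their reporter label (0.052), in females (0.57) and unscaled (0.12), was -0.349 without WT cage female replicate 1 and cKO running female replicate 3, and was -0.25 to 0.09 leaving out 1 library. Male minus female was 0.14 in limma-voom and 0.075 without WT cage female replicate 1 and cKO running female replicate 3, and -0.15 to 0.03 leaving out 1. Sex by genotype was -0.30 in limma-voom, -0.033 and -0.031 in FPKM, -0.002 and -0.012 with muscle and mitochondrial rRNA covariates, -0.16 without the 2 apart, -0.12 unscaled, and -0.14 to 0.20 leaving out 1. The cKO minus WT mean was -0.28 to -0.07 leaving out 1 library, and -0.05 without the 2 against their reporter label. Sex by running was -0.65 to -0.07 over alternatives and -0.60 to -0.25 leaving out 1. No adjusted p of these genotype and sex results fell below 0.272. The causes were not tested.

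Genes called for running (273) numbered 715 unfiltered, 632 in DESeq2, 912 in limma-voom, 155 and 147 in FPKM, and 148 with a replicate block. With muscle, endothelial, macrophage, eGFP and mitochondrial rRNA covariates they numbered 489, 113, 129, 11 and 61. They numbered 127 without the 2 libraries of the less common name prefix and 135 without the 2 against their reporter label. Calls were 8 in females, 102 in males and 637 without WT cage female replicate 1 and cKO running female replicate 3. Leaving out 1, they were 127 (without WT running male replicate 2) to 568 (without WT cage female replicate 1). Listed genes called (5) numbered 35, 12, 17 and 3 (FPKM with 0.1) in the first of these alternatives, and 3 without the sex term. With the covariates they numbered 10, 2, 2, 0 and 0, and in the subsets 1, 3, 0 (females) and 15. They numbered 9 unscaled and 3 to 9 leaving out 1. Higher calls were 42.9% with TMM, 78.4% unscaled and 71.0% in FPKM, where the median of all genes moved from 0.01 to 0.18 and 0.11.

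Replicate numbers gave no sign of pairing, though a weak pairing could be missed. Same-numbered pairs of a sex correlated at -0.31 to 0.09 (34 pairs, median -0.02), and other pairs of a sex at -0.36 to 0.34 (83 pairs, median -0.06). The replicate block gave 1.21 for Rgcc. No library scaling, the fits without eGFP libraries and without WT cage female replicate 1 and cKO running female replicate 3 (the highest Rgcc of their groups) were added after seeing the data. The less common name prefix is that of 2 cage libraries alone, so they give no running value of their own, and what the prefix stands for is not given.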

Other observations

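Within cKO, sexes were ordered differently by activity, a contrast chosen after its values were seen. Rgcc in cKO cage females (48.2 ± 9.23 CPM, SD, n = 3) lay below all cKO cage males (67.0 ± 5.97, n = 3), and in cKO running females (162 ± 56.5, n = 3) above all cKO running males (108 ± 8.84, n = 3). In WT the sexes overlapped in both activities. The running difference was 1.75 ± 0.29 in cKO females and 0.69 ± 0.29 in cKO males, against 1.16 ± 0.27 and 1.41 ± 0.29 in WT. The sex-by-running term within cKO was -1.06 ± 0.41 (edgeR adjusted p = 0.535) and its difference from WT -1.31 ± 0.57 (edgeR adjusted p = 0.999), so neither passed. Without TMM scaling the cKO cage sexes overlapped (38.3 to 59.8 CPM in females, 51.4 to 59.2 in males).

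The remaining marker lists had 0 called genes in edgeR and DESeq2, and 0 to 2 genes each at an unadjusted p under 0.05 in edgeR. Mast cell genes were positive in 8 of 8 tested (median 0.56), keratinocyte in 4 of 4 (0.82), erythroid in 5 of 5 (0.35), adipocyte in 8 of 10 (0.08), muscle fibre in 7 of 25 (-0.12) and chondrocyte in 2 of 7 (-0.33), of which limma-voom called Matn3. Of the lymphocyte genes 1 of 4 was positive, and the 1 tested neutrophil gene, Csf3r, had 0.35 ± 0.38 (edgeR adjusted p = 0.721).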
